A study of Mus musculus with 6 samples.

Results

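The genes described here are the oxygen carriers of blood and muscle together with red cell genes around them: the adult α-globins Hba-a1 and Hba-a2, the adult β-globins Hbb-bs and Hbb-bt, the red cell genes Alas2, Bpgm, Fech and Slc4a1, and the muscle gene Mb. They were picked by symbol, with their values in these same libraries in view, and all 9 were found among the 57010 genes of the table. Since the comparison of radiotherapy with control helped to choose them, its values for these 9 genes are given as a description with no test. Expression was measured by RNA sequencing of gastrocnemius, a largely fast-twitch muscle of the calf, in 6 samples. All mice were NSG (NOD/SCID/IL2Rγ-null), a strain without mature lymphocytes, and all carried a subcutaneous xenograft of MDA-MB-231, a human breast cancer line, with Rab27a knocked down (KD). Radiotherapy mice (n = 3 samples) had the tumour, and not the rest of the body, irradiated once with 10 Gy. The muscle of the other side was taken 3 days later. Control mice (n = 3 samples) had tumours that were not irradiated. Both groups carried the knockdown, so no library shows muscle of a mouse whose tumour lacked it. Whether each sample is a different mouse is not stated in the labels, so p-values measure only the spread between these samples, which may be technical.

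Values are TPM, a transcript abundance which is corrected for transcript length and scaled to the same total, 1000000, in every library. Sequencing depth was therefore unknown, and counting intervals and detection limits cannot be given. The libraries held 10890 to 11866 genes at 1 TPM or more after radiotherapy, against 10902 to 11650 in controls. The 12 fast fibre genes checked as tissue markers, such as Myh4 and Mylpf, include Acta1 and Ckm, which are not confined to fast fibres. They summed to between 94780 and 159536 TPM after radiotherapy, against 182771 to 196507 TPM in controls. All 6 libraries thus carried the transcripts of fast muscle. Transcripts of the mitochondrial genome took 15.1 to 22.5% of TPM after radiotherapy and 8.93 to 13.7% in controls, highest in radiotherapy 2.

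Haemoglobin carries oxygen in red cells as a tetramer of paired α and β chains, each holding one haem. Mammalian red cells have no nucleus, and their globin mRNA is left over from the erythroblast stage and is richest in reticulocytes, the youngest circulating red cells. Globin mRNA in a muscle library is therefore usually read as blood within the tissue. Myoglobin, a single chain related to globins, stores oxygen inside the muscle fibre itself and is most abundant in oxidative fibres.

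The adult globin genes come as near copies, which bears on every value of a single copy. In the GENCODE M21 transcripts (build GRCm38), the coding sequences of Hba-a1 and Hba-a2, each 426 bases, differ at 1 base, C381T from the first to the second, counted from the A of the start codon. Those of Hbb-bs and Hbb-bt, each 441 bases, also differ at 1 base, C417T. The stretches around these bases are shown because they are the only coding letters that tell the copies apart, and the capital marks the differing base.
Hba-a1: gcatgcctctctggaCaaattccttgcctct
Hba-a2: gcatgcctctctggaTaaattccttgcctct
Hbb-bs: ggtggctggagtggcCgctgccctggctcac
Hbb-bt: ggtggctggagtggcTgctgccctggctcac
Of all 50-base windows in the Hba-a1 transcript, 67.5% occur unchanged in Hba-a2, and 86.9% of those of Hba-a2 occur in Hba-a1. For the β pair the shares were 65.8% of Hbb-bs windows and 58.3% of Hbb-bt windows. A read from such a shared window does not tell the copies apart, so the value of a single copy is uncertain.

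Promoter letters are shown for the globins and Alas2, each lower in every radiotherapy library than in any control library, and for Mb as the muscle counterpart. RefSeq windows were kept for 7 of the 9 members, and each sequence below is the 250 bases before an annotated start in GRCm38.p6. The members without a window are Slc4a1 and Fech, and the chromosome of Fech was left out of the search. Capitals in the red cell genes mark GATA words on either strand, which are TGATAA or TGATAG with T first and AGATAA or AGATAG with A first. They also mark CACCC or CCAAT on either strand, and TATAA on the strand shown. In Mb they mark the E-box CANNTG and CACCC. The α window lies at chr11:32283422-32283671 on the plus strand, and a run of 247 letters is identical in the window of Hba-a2, whose annotated start lies 3 bases further along the same letters.
Hba-a1: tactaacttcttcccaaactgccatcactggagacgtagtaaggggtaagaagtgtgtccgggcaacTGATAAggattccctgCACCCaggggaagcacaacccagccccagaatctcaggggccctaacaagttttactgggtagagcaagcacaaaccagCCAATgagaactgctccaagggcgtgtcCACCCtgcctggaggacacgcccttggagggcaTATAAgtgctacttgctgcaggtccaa
The Hbb-bs window lies at chr7:103827929-103828178 and the Hbb-bt window at chr7:103813924-103814173, both on the minus strand.
Hbb-bs: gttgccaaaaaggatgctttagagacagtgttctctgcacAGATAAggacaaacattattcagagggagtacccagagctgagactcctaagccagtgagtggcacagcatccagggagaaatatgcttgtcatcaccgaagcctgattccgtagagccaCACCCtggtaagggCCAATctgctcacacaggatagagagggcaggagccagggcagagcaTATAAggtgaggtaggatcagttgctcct
Hbb-bt: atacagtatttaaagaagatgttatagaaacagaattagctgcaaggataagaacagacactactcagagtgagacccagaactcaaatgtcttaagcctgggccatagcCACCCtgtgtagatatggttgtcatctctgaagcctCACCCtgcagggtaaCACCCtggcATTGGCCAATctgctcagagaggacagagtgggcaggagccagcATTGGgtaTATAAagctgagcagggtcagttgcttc
The Alas2 window lies at chrX:150547167-150547416 on the plus strand.
Alas2: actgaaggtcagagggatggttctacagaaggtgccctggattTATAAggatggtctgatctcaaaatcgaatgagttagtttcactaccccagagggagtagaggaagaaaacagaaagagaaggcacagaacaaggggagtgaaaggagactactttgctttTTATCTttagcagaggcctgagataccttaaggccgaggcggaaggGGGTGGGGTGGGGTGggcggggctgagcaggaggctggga
The Mb window nearest the coding part, 1 of 3 annotated, lies at chr15:77022728-77022977 on the minus strand.
Mb: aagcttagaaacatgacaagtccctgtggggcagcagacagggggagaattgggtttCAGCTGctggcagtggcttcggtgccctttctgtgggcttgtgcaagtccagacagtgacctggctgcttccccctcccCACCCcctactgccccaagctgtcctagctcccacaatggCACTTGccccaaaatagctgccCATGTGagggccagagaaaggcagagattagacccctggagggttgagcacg
All 4 globin windows held the CACCC word, the CCAAT word and also TATAA, and 3 of the 4 held a GATA word. Over 32851 mouse windows of the same length, 52.0% held CACCC and 33.8% held the CCAAT word, while 26.5% held a GATA word and 5255 of them held TATAA. The β windows are related but not copies, with 73.3% identity over 243 aligned letters. The window of Bpgm held 3 CCAAT words, with no GATA word, CACCC or TATAA. The Mb window held 3 E-boxes (66.2% of all windows held at least one) and 1 CACCC, with no match to the MEF2 consensus, which 2.92% of all windows held. These are matches of letters and do not show that a factor binds there.

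Adult globin transcripts were less abundant in the irradiated group. Summed over the 4 genes they made up 0.161, 0.0928 and 0.152% of TPM in radiotherapy 1, 2 and 3, against 0.417, 0.719 and 0.334% in control 1, 2 and 3. The highest radiotherapy library lay below the lowest control, with means of 0.135 ± 0.0371% and 0.490 ± 0.202% (SD, n = 3 each), a 3.62-fold difference of means. Leaving out any 1 library kept the ratio of radiotherapy to control between 0.238 and 0.360. As a share of TPM outside the mitochondrial genome the globins made up 0.166 ± 0.0411% after radiotherapy and 0.555 ± 0.245% in controls (SD, n = 3 each), a 3.35-fold difference of means. The summed TPM of 12 fast fibre genes was also lower in the radiotherapy libraries, with no overlap between the groups. Of the 12, 11 had negative log2 fold changes, against 67.9% of all genes tested, and Myh1 was higher at 0.54. None of the 12 passed the adjusted threshold of limma, while 8 of 12 had an unadjusted p under 0.05, against 3.82% of all genes tested, and 7 of 12 were lower with no overlap, against 7.54% of all genes tested. The part of the fast fibre share in the globin difference was not tested. Per TPM of those 12 genes the globins were at 0.0101 ± 0.000319 after radiotherapy and 0.0261 ± 0.0111 in controls (SD, n = 3 each), again with no overlap. In bulk tissue, fewer red cells or reticulocytes and less globin mRNA in each cannot be told apart.

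The α genes Hba-a1 and Hba-a2 encode the α chain and lie in one cluster on chromosome 11. Hba-a1 had 479, 326 and 492 TPM in radiotherapy 1, 2 and 3, against 1104, 1913 and 903 TPM in control 1, 2 and 3. Hba-a2 had 329, 158 and 276 TPM after radiotherapy, against 1046, 1705 and 759 TPM in controls. Neither gene's groups overlapped, and the log2 fold changes, radiotherapy minus control on the log2(TPM + 1) scale used throughout, were −1.54 for Hba-a1 and −2.18 for Hba-a2.

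The β genes Hbb-bs and Hbb-bt, on chromosome 7, encode the β chain. Hbb-bs, the most abundant globin in each of the 6 libraries, had 664, 358 and 634 TPM after radiotherapy, against 1665, 2950 and 1344 TPM in controls. Its rank by TPM ran from 162 to 305 in radiotherapy libraries and from 34 to 94 in controls. Hbb-bt had 142, 85.9 and 114 TPM after radiotherapy, against 353, 617 and 336 TPM in controls. Both genes were lowest in radiotherapy 2 and highest in control 2, as were both α genes, and their log2 fold changes were −1.81 for Hbb-bs and −1.90 for Hbb-bt.

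**Figure D1:**
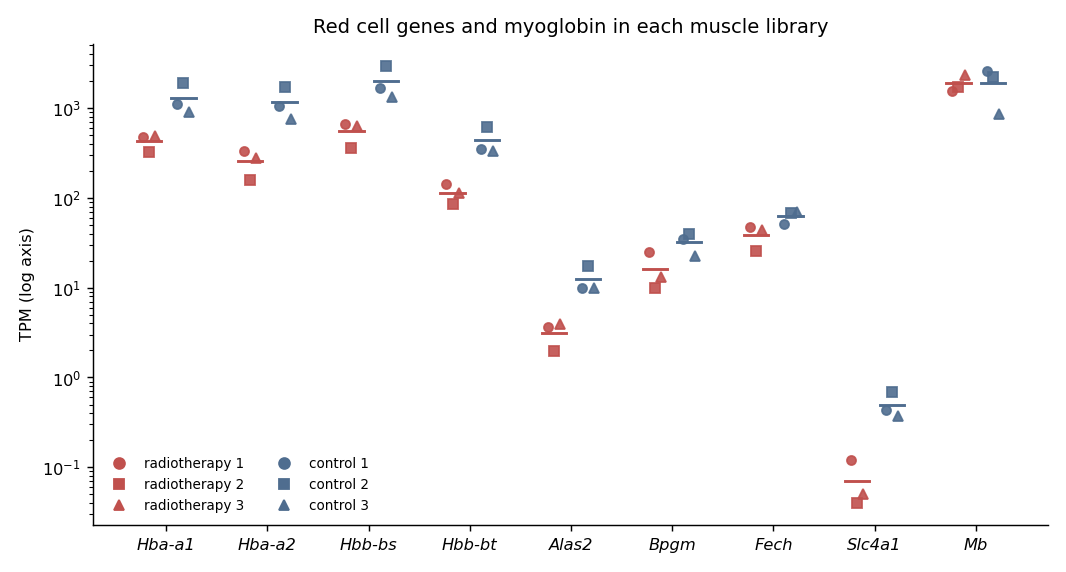
TPM on a log axis of the 9 genes in each library, radiotherapy left of control, with a bar at each group mean. The 4 globins, Alas2, Fech and Slc4a1 lie wholly lower after radiotherapy, Bpgm overlaps slightly, and Mb overlaps widely, with control 3 at 866 TPM.

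The balance of α to β transcripts hardly moved while their level did. The ratio of summed α to summed β TPM was 1.00, 1.09 and 1.02 in radiotherapy 1, 2 and 3, and 1.07, 1.01 and 0.989 in control 1, 2 and 3. The groups overlapped, with means of 1.04 ± 0.0454 and 1.02 ± 0.0388 (SD, n = 3 each). Across all 6 libraries the ratio varied by a factor of 1.10 between lowest and highest, whereas the summed globin level varied by a factor of 7.75.

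Within the α pair, in contrast, the division between the copies was not alike in the groups. Hba-a1 was 1.46, 2.06 and 1.78 times Hba-a2 in radiotherapy 1, 2 and 3, against 1.05, 1.12 and 1.19 times in control 1, 2 and 3. The radiotherapy values lay above all control values, with means of 1.77 ± 0.303 and 1.12 ± 0.0677 (SD, n = 3 each). Within the β pair Hbb-bs was 4.68, 4.17 and 5.55 times Hbb-bt after radiotherapy, and 4.71, 4.78 and 4.001 times in controls, and these groups overlapped. The Hba-a1 transcript is annotated at 699 bases and that of Hba-a2 at 554, and how shared reads were divided between the copies is not given in the sources used here. Its part in the α copy ratio was not tested.

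**Figure D2:**
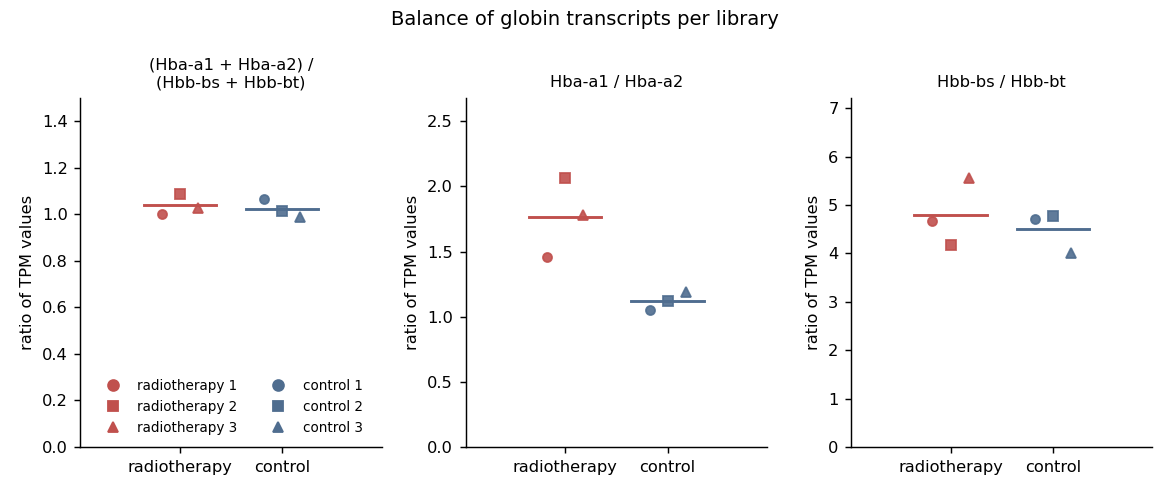
Ratios of TPM per library for α to β globins, Hba-a1 to Hba-a2 and Hbb-bs to Hbb-bt, on axes that start at 0, with a bar at each group mean. The first ratio stays between 0.989 and 1.09 in all 6 libraries, and the second is higher in every radiotherapy library.

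The other globin genes gave little or no signal. The embryonic globins Hba-x, Hbb-y and Hbb-bh1, which serve the yolk sac stage, were listed at 0 in all 6 libraries, as were Hbb-bh0, Hbb-bh2 and Hbq1a. The θ-globin Hbq1b was listed at 0 in each radiotherapy library and in control 1, and at 0.47 and 0.61 TPM in control 2 and 3. Cygb, cytoglobin, a globin of fibroblast-like cells, was at 4.65 ± 1.596 TPM after radiotherapy and 5.09 ± 1.17 TPM in controls (log2 fold change −0.13, SE 0.29, limma adjusted p = 0.984).

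Alas2 encodes the erythroid form of the enzyme that starts haem synthesis. It had 3.61, 1.96 and 3.91 TPM in radiotherapy 1, 2 and 3, against 10.0, 17.3 and 9.83 TPM in control 1, 2 and 3, with a log2 fold change of −1.68 and no overlap. Set against globins, Alas2 hardly differed between libraries: per 1000 TPM of adult globins it had 2.24, 2.11 and 2.58 TPM after radiotherapy, and 2.40, 2.41 and 2.94 TPM in controls. That ratio varied by a factor of 1.39 over the 6 libraries, and the groups overlapped.

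Slc4a1 encodes band 3, the chloride-bicarbonate exchanger and membrane anchor of the red cell. It was near the bottom of the measured range, at 0.12, 0.04 and 0.05 TPM after radiotherapy, against 0.44, 0.69 and 0.37 TPM in controls, and did not reach 1 TPM in any library. On the log2(TPM + 1) scale the fold change was −0.48, a size that the pseudocount compresses, and the ratio of group means was 7.14. Per 1000 TPM of adult globins it had 0.0501 ± 0.0216 TPM after radiotherapy and 0.104 ± 0.00745 TPM in controls (SD, n = 3 each), with no overlap, at levels where the table keeps only 2 decimals.

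Fech and Bpgm differed less than the globins. Fech, ferrochelatase, puts iron into the ring in the last step of haem synthesis in every cell that makes haem, muscle included. It had 47.4, 25.7 and 43.8 TPM after radiotherapy, against 51.3, 67.3 and 69.3 TPM in controls, a log2 fold change of −0.71 with no overlap. Without radiotherapy 2 that value was −0.44. Bpgm makes 2,3-bisphosphoglycerate, which lowers the oxygen affinity of haemoglobin. It had 24.9, 9.94 and 13.2 TPM after radiotherapy, against 34.8, 39.2 and 22.6 TPM in controls, and radiotherapy 1 lay above control 3. The log2 fold change of Bpgm was −1.03, and without single libraries it ran from −1.38 to −0.76.

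Relative to globins, both genes were higher after radiotherapy, as any gene that was lowered less than the globins would be. Fech had 28.7 ± 0.887 TPM per 1000 TPM of adult globins in the radiotherapy libraries and 14.1 ± 5.89 in controls (SD, n = 3 each), and Bpgm had 11.6 ± 3.45 and 6.86 ± 1.45. The Fech to Alas2 ratio was 13.1, 13.1 and 11.2 after radiotherapy, against 5.12, 3.89 and 7.05 in controls. Against the summed globins, the values of Alas2 overlapped between the groups, and those of Fech, Bpgm and Slc4a1 did not.

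Of the 8 red cell members, 7 had radiotherapy values wholly below the control values, as had 6 of the 7 that were tested. Among all 11375 tested genes, those with at least 1 TPM in at least 3 libraries, the share with that pattern was 7.54%, and 1.70% were wholly higher. The members were chosen with this contrast known, so nothing is read from the difference. All 8 red cell members were lowest in radiotherapy 2, and 7 of the 8 were highest in control 2. No gene of the table passed limma at an adjusted p of 0.05 (0 of 11375, 0%), with 435 (3.82%) at an unadjusted p under 0.05. No gene passed either under the other filters, scalings and settings, save for 6 without control 1.

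Myoglobin did not separate the groups. Mb had 1561, 1732 and 2340 TPM in radiotherapy 1, 2 and 3, against 2573, 2203 and 866 TPM in control 1, 2 and 3. The highest and the lowest values were both controls, and the means were 1878 ± 409 TPM and 1881 ± 898 TPM (SD, n = 3 each). The log2 fold change was 0.12, and it was −0.36 without control 3, −0.05 without radiotherapy 3 and 0.42 without control 1, so its direction depends on which libraries are kept. Mb ranked between 42 and 74 by TPM after radiotherapy and between 41 and 150 in controls.

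Set against each other, the blood and muscle carriers gave different pictures. The ratio of adult globin to Mb TPM, which does not depend on the total that TPM is scaled to, was 1.03, 0.536 and 0.648 in radiotherapy 1, 2 and 3, against 1.62, 3.26 and 3.86 in control 1, 2 and 3. All radiotherapy values lay below all controls, with means of 0.739 ± 0.261 and 2.91 ± 1.16 (SD, n = 3 each). Globin transcripts outnumbered Mb transcripts in radiotherapy 1 and in all 3 controls. The ratio was highest in control 3, the library with the lowest Mb, while the globins were highest in control 2.

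**Figure D3:**
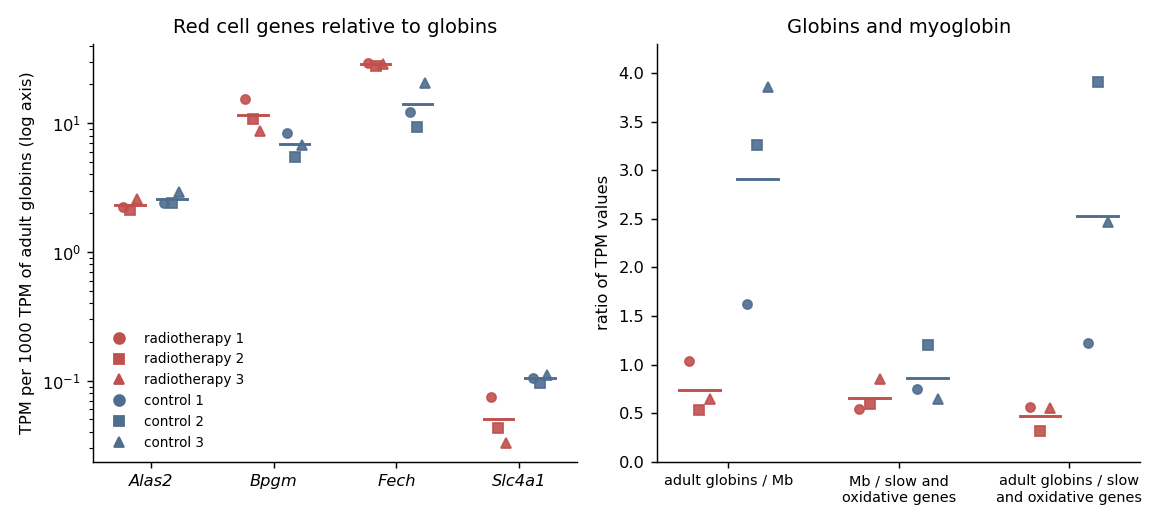
Left, TPM of 4 red cell genes per 1000 TPM of adult globins on a log axis; right, ratios of globins and Mb to each other and to summed slow and oxidative fibre genes, with bars at group means. Alas2 stays between 2.11 and 2.94, Fech and Bpgm are higher and Slc4a1 lower after radiotherapy, and the globin to Mb ratio is at most 1.03 after radiotherapy and at least 1.62 in controls.

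Genes of slow and oxidative fibres, where myoglobin is richest, were summed for comparison. Their 11 genes, among them the slow myosin Myh7 and the slow troponin Tnnt1, reached 2891, 2904 and 2763 TPM in radiotherapy 1, 2 and 3, against 3424, 1838 and 1352 TPM in control 1, 2 and 3. Like Mb, the sum was lowest in control 3 and highest in control 1. Mb per TPM of these genes was 0.661 ± 0.163 after radiotherapy and 0.864 ± 0.296 in controls (SD, n = 3 each), and the groups overlapped. Of the 11 genes, 10 had positive log2 fold changes and 0 passed limma over all genes tested (adjusted p at least 0.977; 0 at an unadjusted p under 0.05), with a median of 0.37 beside −0.11 for all tested genes. The calcineurin, NFAT and MEF2 genes, a pathway that drives Mb in oxidative fibres, were listed together with Ppargc1a and Sp1. These 10 genes had a median of −0.29, with 8 of them negative, against 67.9% of all genes tested. Of the 10, 0 passed limma (0 at an unadjusted p under 0.05). Mef2c, a MEF2 factor of muscle and vessels, was at 23.7 ± 5.88 TPM after radiotherapy and 42.6 ± 21.3 TPM in controls (log2 fold change −0.72, SE 0.39, limma adjusted p = 0.977).

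Other erythroid genes showed smaller differences, none past the test. Of 52 genes of haem synthesis, the red cell membrane, erythroid regulators and late erythroid cells, 51 were found by symbol and 29 were expressed highly enough to be tested. Of these 25 had negative and 4 positive log2 fold changes, against 67.9% negative among all tested genes. None passed limma over all genes tested (0 of 29, adjusted p from 0.977 to 0.992). An unadjusted p under 0.05 was seen for 4 of the 29, against 3.82% of all genes tested. The median was −0.28, beside −0.11 for all tested genes. It was −0.11 without radiotherapy 2 and −0.48 without radiotherapy 3, when the median of all tested genes was −0.01 and −0.25. The groups did not overlap, with radiotherapy lower, in 7 of the 29, against 7.54% of all genes tested. In none was radiotherapy wholly higher, against 1.70% of all genes tested.

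Among the 10 haem synthesis genes outside the members, 9 were negative. Alas1, which starts haem synthesis outside the erythroid line, had 27.2, 13.5 and 26.2 TPM after radiotherapy, against 34.3, 31.6 and 42.0 TPM in controls (log2 fold change −0.72, SE 0.30, limma adjusted p = 0.977). Urod, the uroporphyrinogen decarboxylase, was at 35.4 ± 8.13 TPM after radiotherapy and 55.0 ± 15.2 TPM in controls (log2 fold change −0.61, SE 0.28, limma adjusted p = 0.977). Alad and Uros, which act earlier in the pathway, gave −0.20 and −0.14. Unlike Alas2, Alas1 was highest in control 3, where globins were the lowest of the controls.

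The 7 tested membrane genes had a median of −0.52, but the abundant ones are also made by muscle or vessels. Aqp1, the water channel of red cells and of capillary endothelium, was at 235 ± 14.2 TPM after radiotherapy and 339 ± 53.3 TPM in controls (log2 fold change −0.52, SE 0.21, limma adjusted p = 0.977). Ank1, which also has a small form in the muscle sarcoplasmic reticulum, gave −0.52 (SE 0.47). Tmod1, which caps actin filaments in red cells and sarcomeres, gave −0.60 (SE 0.24), and the membrane protein 4.1 gene Epb41 gave −0.30 (SE 0.27). Genes closer to red cells alone were under 1 TPM: Epb42 was at 0.05, 0.03 and 0.06 TPM after radiotherapy, against 0.09, 0.63 and 0.26 TPM in controls. Rhag, of the Rh complex, did not exceed 0.03 TPM in any library.

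Of the 9 erythroid regulators, 7 fell under the filter and 2, Lmo2 and Zfpm1, were tested. Gata1, the master factor of red cell formation, was listed at 0 in 5 of the 6 libraries and at 0.03 TPM in control 2, and Klf1 did not exceed 0.22 TPM. Lmo2, shared by erythroid and endothelial cells, gave a log2 fold change of 0.31 (SE 0.40), and Zfpm1, a GATA cofactor, −0.38 (SE 0.20); neither passed limma (adjusted p = 0.979 and 0.977). Among late erythroid genes, Prdx2, a peroxiredoxin abundant in red cells and present in most tissues, gave −0.11, the mitophagy receptor Bnip3l 0.09, Bcl2l1 −0.23 and Tmcc2 −0.72. Trim58 and Hemgn were listed at 0 in all libraries.

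**Figure D4:**
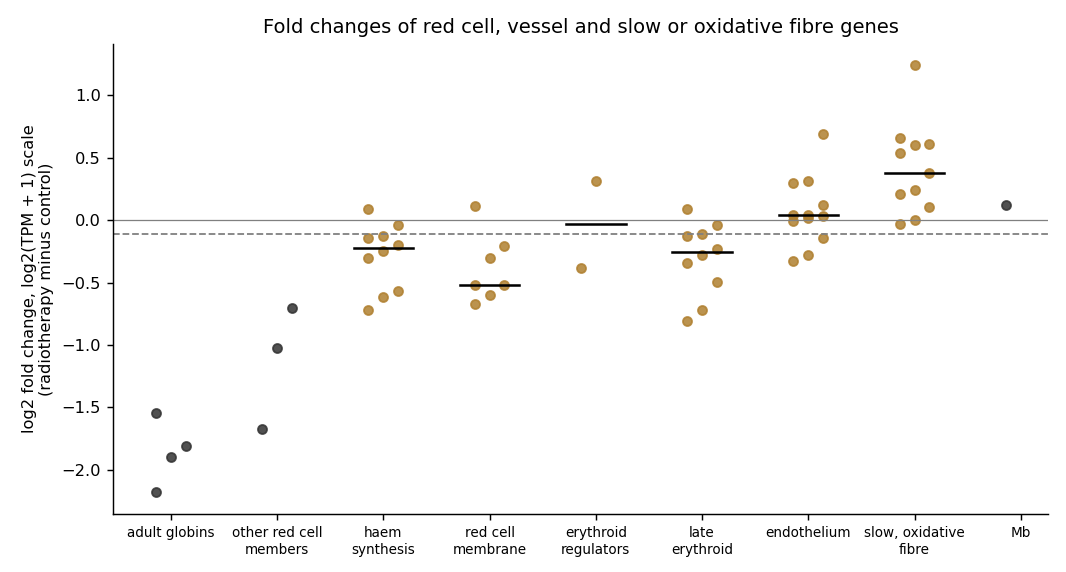
Log2 fold changes, radiotherapy minus control on the log2(TPM + 1) scale, for tested genes of each group, with dark points for the genes chosen with this contrast known, tan points for other lists, black bars at list medians and a dashed line at the median of all tested genes (−0.11). Globins lie between −2.18 and −1.54, and the erythroid lists outside the members lie between −0.81 and 0.31.

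White cell marker sums also had a lower mean in the radiotherapy group, but this rested on control 1. Endothelial and platelet sums overlapped, with group means close to each other. The 12 endothelial genes, such as Pecam1 and Cdh5, summed to 261, 231 and 340 TPM in radiotherapy 1, 2 and 3, against 311, 254 and 206 TPM in control 1, 2 and 3, and 0 of 12 passed limma (0 at an unadjusted p under 0.05). Globin per TPM of endothelial genes was 4.88 ± 1.14 after radiotherapy and 19.3 ± 7.88 in controls (SD, n = 3 each), with no overlap. The 7 neutrophil genes, led by S100a8 and S100a9, summed to 150, 155 and 679 TPM after radiotherapy, against 1632, 283 and 277 TPM in controls. The 7 general leukocyte genes summed to 28.1, 37.1 and 159 TPM after radiotherapy, against 414, 44.3 and 32.7 TPM in controls. All 5 tested neutrophil genes and all 6 tested leukocyte genes had negative log2 fold changes, with medians of −1.002 and −0.73 against −0.11 for all genes tested, and none passed limma (0 and 0 at an unadjusted p under 0.05). For both white cell sums only control 1 exceeded radiotherapy 3, so the groups overlapped, and their part in the globin difference was not tested. Both sums were highest in control 1, whereas the globins were highest in control 2. The 10 platelet genes, all found and 2 of them tested, summed to 5.54 to 16.9 TPM after radiotherapy and 4.90 to 15.2 TPM in controls. Most of that sum was Pf4 alone, at 7.31 ± 5.81 TPM after radiotherapy and 6.81 ± 4.78 TPM in controls. Pf4 had a log2 fold change of 0.05 and Itga2b, the other tested gene, −0.32, and 8 genes fell under the filter.

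Relatives of the members by family were also measured. The phosphoglycerate mutases share their fold with Bpgm; the muscle form Pgam2 was at 1315 ± 241 TPM after radiotherapy and 1957 ± 835 TPM in controls (log2 fold change −0.50, SE 0.31), and Pgam1 gave −0.05 (SE 0.43), with limma adjusted p of 0.977 and 0.993. Minpp1, a phosphatase that also acts on 2,3-bisphosphoglycerate, gave −0.33 (SE 0.29). Of 8 other Slc4 transporters, 2 were tested, and Slc4a2, a widely made anion exchanger, gave −0.22 (SE 0.24, limma adjusted p = 0.977) and Slc4a3, an exchanger of excitable tissues, 0.44 (SE 0.37, limma adjusted p = 0.977).

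Genes with the most similar pattern were sought in the deviations of each library from its group mean, which leave the difference between groups out. For the summed globins the 6 most similar of 6323 genes were Usf3, Palld, Clcn1, Cdkn1c, Rnf170 and Ccdc50, with Pearson correlations across the 6 libraries of 0.999 to 0.975. Their own log2 fold changes ran from −0.62 to −0.12, smaller than those of any globin. On the same measure Alas2 reached 0.967, Bpgm 0.772, Fech 0.599 and Mb 0.501. For Mb the most similar were Slfn5, Ccl19-ps2, Sh3bgrl, Dleu2, Cic and Csrp2, at 0.995 to 0.988. With 6 libraries and this many genes, values near 1 are bound to occur, so these names are a description of these libraries.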

How the data were processed

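Total RNA was turned into libraries with Illumina's TruSeq RNA kit (labels' protocols). The authors deposited TPM values for 57010 genes, 1 column per sample. HISAT2, StringTie, RSEM and build mm9 are named in the submitters' processing notes; which tool did what, in which version, with which annotation and strand setting, and how reads matching several genes were handled, is not given in the sources used here. TPM removes depth and is relative, so a larger share of some transcripts lowers the rest.

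Values were analysed as log2(TPM + 1). The 11375 genes that reached 1 TPM in 3 or more of the 6 samples were tested with limma 3.58.1 in R 4.3.3 (mean-variance trend, two-sided, group as the only term), with Benjamini-Hochberg adjustment over all of them and a threshold of 0.05. The test was tested on simulated data. Slc4a1 fell under that filter. The other 8 members were in the fit and its counts, but no test of a single member is reported, since they were chosen on these values. Members and lists (15 lists, 143 entries) were chosen with earlier results of these data known.

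All members are named. Up to 4 genes per erythroid list were named by highest mean TPM; genes chosen after their values were seen are Epb42, Rhag, Gata1, Klf1, Trim58, Hemgn, Mef2c and those given as examples or family relatives. Similar patterns were taken as the 6 highest correlations among genes averaging 5 TPM or more, without predicted genes and clone names. Sequences came from RefSeq (GRCm38.p6) and GENCODE M21, whose build is not that of the files, so no coordinates were joined to the values. Alternatives were other pseudocounts, filters, scalings, limma without trend, the replicate block and each library left out. Plots used matplotlib 3.10.9 (Python 3.11.15).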

Additional observations from a re-analysis of the deposited data

How the results depend on the processing

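The ratio of summed globin TPM, radiotherapy over control, was 0.276 and stayed between 0.238 and 0.360 under both other scalings run, with geometric means and with any 1 library left out. The globin to Mb ratio of group means was 0.254 and stayed between 0.203 and 0.303, and the ratio of α to β balances was 1.02 and stayed between 0.990 and 1.04. The log2 fold change of Mb was 0.12, 0.22 with median-of-ratios scaling, and ran from −0.36 to 0.42 with 1 library left out. The number of genes past limma was 0 in each setting except without control 1, where it was 6, and for the erythroid genes outside the members it was 0 in each setting. Their median log2 fold change was −0.28, −0.14 without a filter, −0.15 after quantile normalization, and from −0.48 to −0.11 with 1 library left out; the median of all tested genes moved from −0.11 to −0.02 with quantile normalization. The labels give no pairing by replicate number. Deviations of same-numbered libraries correlated at −0.06, 0.02 and −0.11 across genes, which cannot show whether the samples were paired. With the replicate number as a block 0 genes passed limma, 0 of the erythroid genes did, and their median stayed at −0.28. Depth is unknown, which limits genes near 0 such as Slc4a1 most.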
